A study of Sus scrofa with 6 samples.

Results

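Genes of fatty acid oxidation and of the peroxisome were described in porcine renal medulla, 24 hours after 2.5 hours of cardiopulmonary bypass (CPB) or a Sham procedure. A list of 56 genes was used, and a gene counted as measured when a probe set of the Affymetrix porcine array carried its symbol and no other. By that rule 46 of the 56 genes were measured, with 61 probe sets among the 23999 compared. They fell into 21 of 23 mitochondrial genes, 18 of 26 peroxisomal genes, and 7 of 7 genes that serve both compartments or activate fatty acids for them. The mitochondrial genes ACAT1 and ACOT2 and the peroxisomal genes EHHADH, PECR, CROT, HACL1, PEX5, PEX6, PEX11A and PXMP2 had no such probe set and were not analysed here. For the 12 genes with several probe sets the probe set with the highest mean stood for the gene in counts of genes and in medians, and is called probe set 1.

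The tissue came from 6 adult female pigs, White-Landrace crossbred by the labels and Large White-Landrace by the methods, 3 Sham and 3 CPB, each animal with its own array. The Sham animals had 2.5 hours of general anaesthesia with the same neck dissection and heparin as the bypass animals, and the CPB animals had 2.5 hours of bypass under that anaesthesia. Both groups recovered and were sampled 24 hours later, so surgery, anaesthesia and heparin were common to them. For its full groups the paper tabulates a higher mean fluid requirement and metaraminol dose after bypass, although its text calls crystalloid volume not different. Each piece was a small block cut from the outer medulla, which holds several tubule segments, vessels and other cells in amounts that can differ between blocks. In such bulk tissue, fewer cells of a type and less RNA per cell cannot be told apart.

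Mitochondrial beta-oxidation shortens fatty acids from the carboxyl end. Long chains enter through the carnitine shuttle, acyl-CoA dehydrogenases open each cycle, hydratase, dehydrogenase and thiolase steps complete it, and electron transfer flavoprotein passes the electrons to the respiratory chain. Peroxisomes shorten very long and branched chains with oxidases that release hydrogen peroxide, and the peroxins build the organelle and import its enzymes. In the kidney the proximal tubule is known for its dense mitochondria and peroxisomes and for relying on fatty acids as fuel.

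The values were RMA intensities, and a difference is the mean log2 intensity in CPB minus that in Sham, from limma with its standard error (SE, n = 3 per group). Array medians lay between 94.6 and 96.9. Over all probe sets the median difference was 0.027. The study's threshold, an unadjusted p below 0.05 with at least 1.6-fold, was met in the higher direction by 0.0875% of probe sets. With the arrays centred on their medians, 0.325% met it in either direction. An adjusted p of 0.05 was passed by 0%, with a smallest adjusted p of 0.995 in limma with Benjamini-Hochberg adjustment. An unadjusted p below 0.05 with a higher mean in CPB was found for 0.7%. Arrays of different groups could correlate more closely than arrays of the same group. Over all probe sets Sham 2 and CPB 1 were closest, with r = 0.990, and Sham 1 and CPB 3 were farthest apart, with r = 0.919. Of the thick ascending limb markers 3 of 9 were measured, KCNJ1, CLDN10 and EGF, with a summed intensity of 2961 to 5849 in Sham and 4539 to 4942 in CPB. UMOD, SLC12A1 and AQP2, which define the medullary tubule segments, were among the markers without a probe set of their own symbol.

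Most of the genes averaged higher in CPB, and 1 of them, the peroxisomal oxidase ACOX3, met the study's threshold. A higher mean was seen in 40 of 46 genes and in 52 of 61 probe sets, or 85.2%, beside 55.9% of all probe sets. The median difference was 0.29 over the mitochondrial genes, of which 20 of 21 were higher, and 0.30 over the peroxisomal genes, of which 15 of 18 were higher. ACOX3 was 1 of 61 probe sets, or 1.64%, at the study's threshold. At an unadjusted p below 0.05 there were 2 probe sets, or 3.28%, those of ACOX3 and PEX14, a protein of the peroxisomal docking complex. The methods' t-test on the same log2 values also called those 2, beside 2.08% of all probe sets in either direction. None passed the adjusted p in limma or in the methods' t-test.

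These medians rested on few arrays. Without CPB 1 the mitochondrial median was 0.063 and without CPB 3 it was 0.065, whereas it was 0.65 without CPB 2 and 0.54 without Sham 2, and 0.13 without Sham 1 or without Sham 3. The peroxisomal median ran from 0.068 without CPB 3, 0.091 without Sham 1 and 0.14 without CPB 1 to 0.45 without Sham 2 and 0.48 without CPB 2. The number of probe sets at the study's threshold was 6 without CPB 2 and 3 without Sham 2, while 2.89% and 2.92% of all probe sets met it in either direction in those fits. It stayed at 1 when any of the other 4 arrays was left out.

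**Figure D1:**
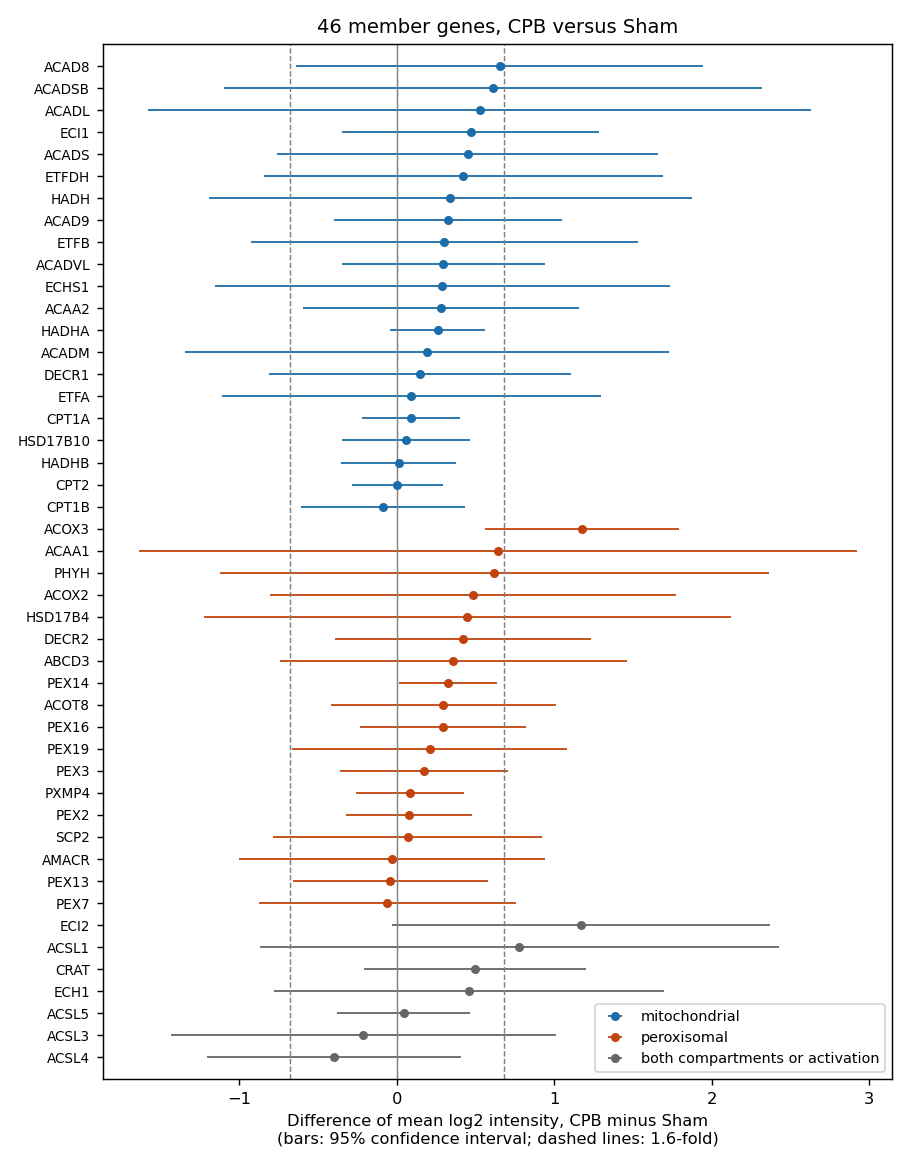
Difference of mean log2 intensity, CPB minus Sham, for each of the 46 measured genes (x axis, log2 units), with 95% confidence intervals from limma as bars and dashed lines at 1.6-fold in either direction. The points lie mostly right of 0, and the intervals of 44 of the 46 genes include 0, those of ACOX3 and PEX14 being the exceptions.

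The animals of a group differed from each other by more than the groups did for most of these genes. The difference exceeded the within-group SD for 7 of 61 probe sets, or 11.5%, beside 22.7% of all probe sets. The highest of the 6 arrays was over 2 times the lowest for 43 of the 61. With the arrays of CPB all above those of Sham there were 3 probe sets, or 4.92%, those of ACOX3, PEX14 and HADHA, beside 3.38% of all probe sets, and none lay the other way.

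The order of the animals was shared across the genes. CPB 3 was the highest array for 39 of 61 probe sets, and CPB 2 was the lowest of the 6 for 30. Sham 2 was the highest Sham array for 50 of 61, or 82.0%, beside 46.8% of all probe sets, and CPB 2 was the lowest CPB array for 55, or 90.2%, beside 41.6%. In the peroxisomal group both held for 18 of 18 genes, the membrane and import genes included, and in the mitochondrial group for 16 and 18 of 21. The mitochondrial exceptions were CPT1A and CPT1B of the carnitine shuttle, HADHA and HADHB of the trifunctional protein, and HSD17B10.

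After each gene was centred on its own mean over the arrays, the mitochondrial genes averaged -0.42, 0.32 and -0.32 in Sham 1, 2 and 3 and 0.42, -0.54 and 0.53 in CPB 1, 2 and 3. The 10 peroxisomal enzymes, counting the transporter ABCD3, averaged -0.77, 0.45 and -0.35 in the Sham arrays and 0.60, -0.64 and 0.71 in the CPB arrays. Thus Sham 2, CPB 1 and CPB 3 lay above 0 for both compartments and Sham 1, Sham 3 and CPB 2 below, so the groups overlapped. Markers of the proximal tubule, of which 20 of 35 were measured, were also above 0 in Sham 2, CPB 1 and CPB 3 and below 0 in the other arrays, at -1.90, 1.00 and -0.39 in Sham and 1.33, -1.53 and 1.49 in CPB. Their summed intensity was 4108 to 35274 in Sham and 5440 to 43466 in CPB, and 20 of 20 averaged higher in CPB, by a median difference of 0.89, none of them at an unadjusted p below 0.05. Myeloid markers, 7 of 11 measured, had the same signs as the members in all 6 arrays, over a narrower range of -0.15 to 0.085. For 5 of these 7 Sham 2 was the highest Sham array, and for 5 CPB 2 was the lowest CPB array. The means of adipocyte markers, 3 of 5 measured, and of thick ascending limb markers did not follow these signs. The means of the markers of urothelium (4 of 11 measured), smooth muscle (5 of 6) and endothelium (11 of 13) lay on the other side of 0 in each of the 6 arrays. Not every marker did so. Among the 11 endothelium markers Sham 2 was the highest Sham array for 2 and CPB 2 the lowest CPB array for 1. Of these 11, 6 averaged higher in CPB, as did 2 of the 5 smooth muscle markers. For 1 of the 4 urothelium markers CPB 2 was the lowest CPB array. Summed intensities in Sham and CPB were 196 to 1931 and 184 to 1054 for urothelium, 2094 to 7186 and 1871 to 5930 for smooth muscle, and 1556 to 2854 and 1223 to 2662 for endothelium. Collecting duct markers, 6 of 14 measured, also lay on that side on average, with summed intensities of 3562 to 6711 and 2676 to 9548. They did not move together. Sham 2 was the highest Sham array for 3 of these 6, and CPB 2 the lowest CPB array for 3, as for the proximal tubule markers. The intensities have no true 0, so no marker was listed at 0. The part of the tissue's makeup in the differences between the groups was not tested by these values.

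**Figure D2:**
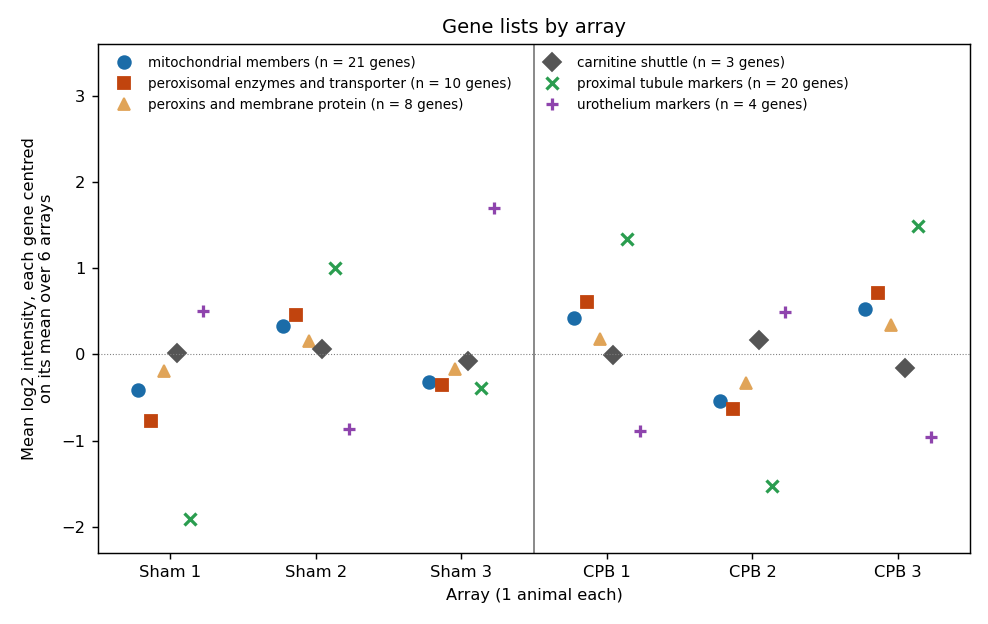
Mean log2 intensity of each gene list in each of the 6 arrays (y axis, log2 units, each gene centred on its own mean over the arrays), with 1 symbol per list. Mitochondrial and peroxisomal genes are above 0 in Sham 2, CPB 1 and CPB 3 and below it in Sham 1, Sham 3 and CPB 2, as are the proximal tubule markers over a wider range, while the carnitine shuttle stays between -0.16 and 0.17.

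The carnitine shuttle, which carries long-chain acyl groups into the mitochondrion, was nearly level. CPT1A, the outer-membrane transferase of liver and kidney, read 2094, 2021 and 1880.4 in Sham 1, 2 and 3 and 2210.1, 2317 and 1875 in CPB 1, 2 and 3. The CPB arrays straddled the Sham arrays, and the difference was 0.090 (SE 0.13), with a 95% interval of -0.22 to 0.40. CPT1B, the muscle form of that enzyme, read 116, 112 and 101 in the Sham arrays and 93.6, 139.8 and 83.2 in the CPB arrays, a difference of -0.088 (SE 0.21) with the highest and the lowest of the 6 arrays both in CPB. CPT2, the inner-membrane transferase, spanned only 1.21-fold over the arrays, with a difference of 0.0054. CPB 2, the lowest CPB array for most of the other genes, was the highest of the 6 for CPT1A and CPT1B.

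The acyl-CoA dehydrogenases, which open each round of beta-oxidation on chains of different length, were higher on average in CPB for 5 of 5 genes, with differences of 0.19 to 0.53, none past the test. ACADM, the medium-chain enzyme, read 1977, 5095 and 2759 in Sham 1, 2 and 3 and 5203, 1402 and 5669.7 in CPB 1, 2 and 3. Sham 2, CPB 1 and CPB 3 lay close together and the other arrays well below them, and the difference was 0.19 (SE 0.63). ACADL, the long-chain enzyme, read 411, 1339 and 679.95 in the Sham arrays and 1975, 286 and 1985 in the CPB arrays, a 6.95-fold span whose difference was 0.53 (SE 0.86). Its lowest array and its highest were both of CPB. The short-chain enzyme ACADS, the very-long-chain enzyme ACADVL and ACAD9, which also helps to assemble complex I of the respiratory chain, had differences of 0.45, 0.30 and 0.32, and the second probe set of ACADVL gave 0.073.

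The dehydrogenases of branched-chain acyl-CoAs, from amino acid breakdown, had the largest mitochondrial differences, also within the animals' spread. ACADSB, which acts on short branched chains, read 577, 1973 and 959 in Sham 1, 2 and 3 and 2049, 629 and 3007 in CPB 1, 2 and 3, and its second probe set read 443, 1746 and 1138 in the Sham arrays and 1891, 328 and 3128 in the CPB arrays. Both were lowest in Sham 1 and CPB 2 and highest in CPB 3, and their differences were 0.61 (SE 0.70) and 0.38 (SE 0.94). ACAD8, the isobutyryl-CoA dehydrogenase of valine breakdown, read 152, 285 and 234 in the Sham arrays and 473, 153 and 544 in the CPB arrays, with a difference of 0.65 (SE 0.53), and 0.16 on its second probe set.

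Among the hydratase, dehydrogenase and thiolase steps 6 of 6 measured genes averaged higher in CPB, none past the test, and their spread between animals varied. ECHS1, the short-chain enoyl-CoA hydratase, read 1766, 4251 and 1762 in Sham 1, 2 and 3 and 4174, 1297 and 4462 in CPB 1, 2 and 3. HADH, the hydroxyacyl-CoA dehydrogenase for shorter chains, read 1351, 3787 and 2303 in the Sham arrays and 4082, 1212 and 4847 in the CPB arrays. In both, Sham 2, CPB 1 and CPB 3 were above the other arrays, and the differences were 0.29 (SE 0.59) and 0.34 (SE 0.63). HADHA, the alpha subunit of the trifunctional protein that runs the last steps for long chains, read 1465, 1518 and 1621 in Sham 1, 2 and 3 and 1638, 1891 and 1999.6 in CPB 1, 2 and 3. Every CPB array was above every Sham array, but CPB 1 exceeded Sham 3 only slightly. The difference was 0.26 (SE 0.12) with an interval of -0.040 to 0.56 and an unadjusted limma p of 0.078, which missed 0.05. Its partner HADHB, the beta subunit with the thiolase, read 1878, 1977 and 2302 in the Sham arrays and 2016, 1826 and 2384 in the CPB arrays on its first probe set, with a difference of 0.013, and the others gave -0.19 and 0.13, so its probe sets differed in sign. The mitochondrial thiolase ACAA2 had a difference of 0.28 (SE 0.36) and HSD17B10, a dehydrogenase of isoleucine breakdown, one of 0.058 (SE 0.17) with Sham 1 its highest array.

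The auxiliary enzymes for unsaturated chains and the electron carriers were also higher on average in CPB without passing the test. ECI1, the mitochondrial enoyl-CoA isomerase, read 850.1, 1475 and 657 in Sham 1, 2 and 3 and 1383, 1007 and 1573 in CPB 1, 2 and 3, a difference of 0.47 (SE 0.33). Its highest arrays, CPB 3 and Sham 2, belonged to different groups. The dienoyl-CoA reductase DECR1 had a difference of 0.15 (SE 0.39). ETFA, the alpha subunit of electron transfer flavoprotein, read 1190.3, 1878 and 1409 in the Sham arrays and 2069, 724 and 2554 in the CPB arrays, and CPB held both its lowest and its highest array, with a difference of 0.094 (SE 0.49). ETFDH, which passes the electrons on to ubiquinone, read 366, 849 and 415 in the Sham arrays and 939, 339 and 977 in the CPB arrays, with a difference of 0.42 (SE 0.52), and its second probe set gave 0.29. The beta subunit ETFB had a difference of 0.30 (SE 0.50).

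In the peroxisome, ACOX3 rose and the other oxidase did not pass the test. ACOX3, an acyl-CoA oxidase of branched chains, read 88.3, 104 and 58.9 in Sham 1, 2 and 3 and 193, 151 and 215 in CPB 1, 2 and 3 on its first probe set. Every CPB array was above every Sham array, and CPB 2, although the lowest of its group, was still above Sham 2. The difference was 1.18 (SE 0.25), a 2.26-fold rise with an interval of 0.56 to 1.79, an unadjusted limma p of 0.0033 and an adjusted p of 0.995. Without each array in turn it stayed between 0.94 and 1.35 and met the study's threshold every time. Its second probe set read 41.4, 67.1 and 47.4 in the Sham arrays and 60.7, 57.5 and 60.6 in the CPB arrays, a difference of 0.23 (SE 0.19), with Sham 2 the highest array, and did not pass. Those readings all lay below the array medians of 94.6 to 96.9, as did Sham 1 and Sham 3 on the first probe set. The mean of both probe sets, an alternative added after the data were seen, differed by 0.70 (SE 0.20), just past 1.6-fold, with an unadjusted limma p of 0.012. The study had picked ACOX3 on these same arrays, so its call is not independent evidence. ACOX2, the oxidase of bile acid intermediates and branched chains, read 349.7, 682 and 440.3 in the Sham arrays and 838, 304 and 1128 in the CPB arrays, a difference of 0.48 (SE 0.53), with 0.082 on its second probe set.

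**Figure D3:**
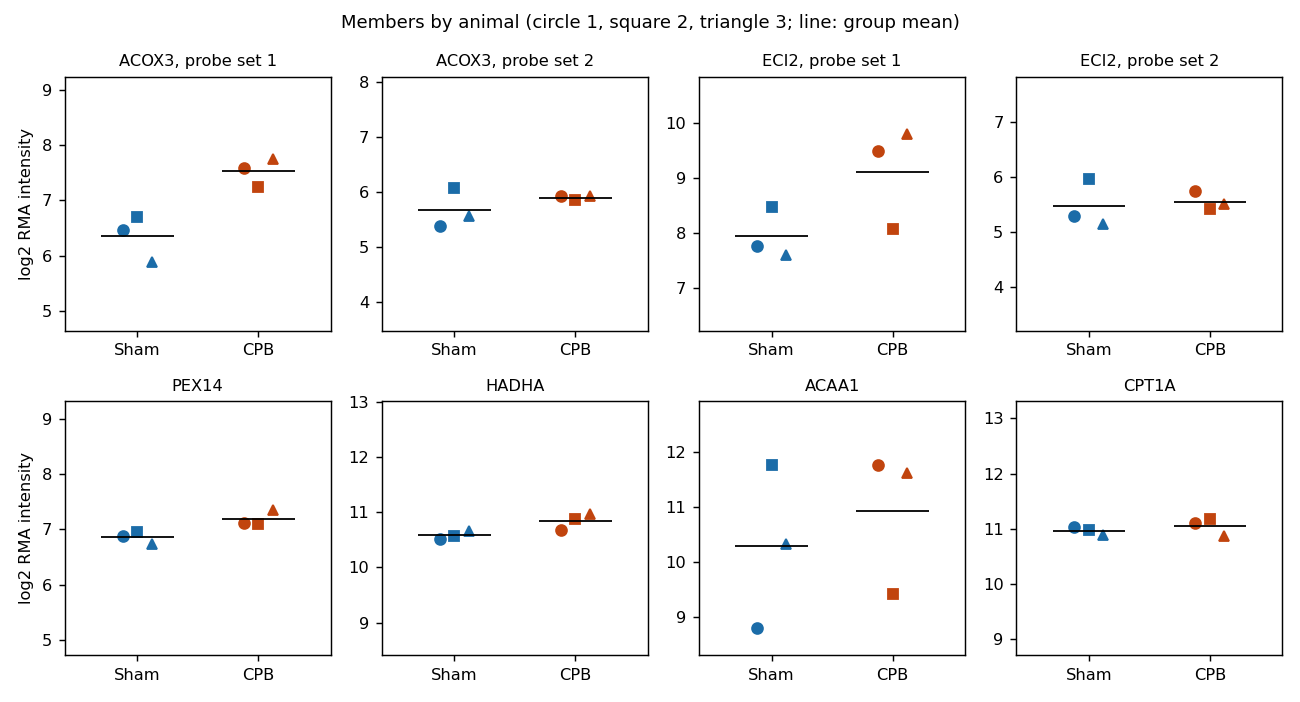
Log2 RMA intensity (y axis) of each animal for ACOX3 and ECI2 on both probe sets and for PEX14, HADHA, ACAA1 and CPT1A, with circles, squares and triangles for animals 1, 2 and 3 of each group and a line at the group mean. The y axes cover equal lengths but start at different values. The groups are apart for ACOX3 on probe set 1, PEX14 and HADHA, and overlap in the other panels.

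The other peroxisomal enzymes were spread widely between animals. ACAA1, the peroxisomal thiolase, read 447, 3457 and 1287 in Sham 1, 2 and 3 and 3480.1, 687 and 3153 in CPB 1, 2 and 3. This was the widest span among the genes on their first probe sets, 7.79-fold, with Sham 2 close to CPB 1 and CPB 3, and the difference was 0.64 (SE 0.93). HSD17B4, the bifunctional enzyme of branched and very long chains, read 787, 2727 and 1094 in the Sham arrays and 2876, 749 and 2763 in the CPB arrays, a difference of 0.45 (SE 0.68). SCP2, the thiolase and sterol carrier protein, read 2527, 4241 and 3160.1 in the Sham arrays and 4306, 2083 and 4372 in the CPB arrays, a difference of 0.071 (SE 0.35). In both genes CPB 2 was the lowest array and Sham 2 lay near CPB 1 and CPB 3. PHYH, which starts alpha-oxidation of phytanic acid, read 987, 2852 and 1559.5 in Sham 1, 2 and 3 and 2495, 1028 and 6187 in CPB 1, 2 and 3. Its value in CPB 3 stood well above the rest, and its difference was 0.62 (SE 0.71).

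Substrate entry, the racemase, the auxiliary reductase and the thioesterase were likewise highest in Sham 2 among the Sham arrays and lowest in CPB 2 among the CPB arrays. ABCD3, the membrane transporter for long and branched acyl-CoAs, read 788, 2120.4 and 1252 in Sham 1, 2 and 3 and 2182, 1010.1 and 1998 in CPB 1, 2 and 3. Its difference was 0.36 (SE 0.45), and its other probe sets gave 0.039 and 0.24. AMACR, the racemase that prepares branched chains, read 98.6, 179 and 151 in the Sham arrays and 186, 78.2 and 172 in the CPB arrays, and at -0.030 (SE 0.40) was the peroxisomal enzyme with a lower mean in CPB. DECR2, the peroxisomal dienoyl-CoA reductase, read 166, 303 and 179 in the Sham arrays and 371, 192 and 303 in the CPB arrays. It was highest in CPB 1, lowest in Sham 1 and differed by 0.42 (SE 0.33), with 0.35 on its second probe set. ACOT8, a thioesterase that releases shortened chains, read 81.8, 148 and 86.3 in the Sham arrays and 149, 94.7 and 137 in the CPB arrays, a difference of 0.30 (SE 0.29) with CPB 1 and Sham 2 nearly equal.

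The peroxins and the membrane protein PXMP4 varied less, at lower mean intensities than ACAA1, HSD17B4, SCP2 and PHYH. Over these 8 genes 6 were higher in CPB, with a median difference of 0.13, beside a median of 0.43 and 9 of 10 higher for the enzymes and ABCD3. PEX14, part of the docking complex through which matrix enzymes are imported, read 117, 125 and 107 in Sham 1, 2 and 3 and 138, 137 and 163 in CPB 1, 2 and 3. All 3 CPB arrays were above all 3 Sham arrays, and the difference of 0.33 (SE 0.13) had an interval of 0.016 to 0.64 and an unadjusted limma p of 0.042, with an adjusted p of 0.995. It fell short of 1.6-fold. When each array was left out in turn its p stayed below 0.05 without Sham 2 and was above 0.05 in the other 5 fits. It was also above 0.05 with an intensity trend and robust prior, without dim probe sets, with the replicate block and with the proximal tubule covariate, at 0.064, 0.057, 0.11 and 0.068. PEX16, needed for membrane assembly, read 309, 447 and 356 in the Sham arrays and 475, 353 and 539.6 in the CPB arrays, a difference of 0.29 (SE 0.22). PEX3 and PEX19, which insert membrane proteins, had differences of 0.17 and 0.21. The ubiquitin ligase PEX2 had 0.079, the import receptor PEX7 had -0.059, and PEX13, also of the docking complex, had -0.041 and 0.031 on its probe sets, opposite in sign. PXMP4 read 75.5, 82.4 and 76.4 in the Sham arrays and 85.6, 70.8 and 93.6 in the CPB arrays, a difference of 0.084 (SE 0.14).

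Genes of both compartments or of fatty acid activation had a median difference of 0.46, with 5 of 7 higher in CPB and none past the test. ECI2, an enoyl-CoA isomerase of mitochondria and peroxisomes, read 215, 353 and 195 in Sham 1, 2 and 3 and 712, 268 and 883 in CPB 1, 2 and 3 on its first probe set. CPB 1 and CPB 3 were above the other arrays, whereas CPB 2 was below Sham 2. The difference, 1.17 (SE 0.49) with an interval of -0.027 to 2.37, was close to that of ACOX3, but its unadjusted limma p was 0.054. Without CPB 2 it met the study's threshold, at 1.69. The second probe set read 39.1, 62.7 and 35.5 in the Sham arrays and 53.6, 42.6 and 45.3 in the CPB arrays, a difference of 0.082 (SE 0.24), and the mean of both, also added after the data were seen, differed by 0.63 (SE 0.33) without passing the test. The readings of that second probe set all lay below the array medians.

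The acyl-CoA synthetases, which attach coenzyme A to long-chain fatty acids, did not share a direction. ACSL1 read 1207, 3658 and 1129 in Sham 1, 2 and 3 and 4676, 1262 and 4272 in CPB 1, 2 and 3, with Sham 2, CPB 1 and CPB 3 above the rest and a difference of 0.78 (SE 0.67). ACSL4, which prefers arachidonic acid, read 847, 447 and 489 in the Sham arrays and 477, 558 and 304 in the CPB arrays. Its highest array was Sham 1 and its lowest CPB 3, and the difference was -0.40 (SE 0.33). ACSL3, of the endoplasmic reticulum and lipid droplets, had a difference of -0.21 (SE 0.50), and the probe sets of ACSL5 gave 0.044, -0.14 and -0.29. CRAT, which exchanges acetyl groups between carnitine and coenzyme A, read 452, 897 and 489.5 in the Sham arrays and 848, 702 and 941 in the CPB arrays, a difference of 0.50 (SE 0.29). ECH1, an isomerase for dienoyl chains, read 271, 675 and 309 in the Sham arrays and 628, 286 and 817 in the CPB arrays, a difference of 0.46 (SE 0.51). For both, Sham 2 lay within the range of CPB. Sham 1 and Sham 3 lay below that range for CRAT, whereas for ECH1 Sham 3 was within it and CPB 2 was nearly as low as Sham 1.

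The span over the arrays differed between roles, as a description without a test. For the carnitine shuttle the highest array was 1.21 to 1.68 times the lowest, and for HADHA and HADHB 1.36 and 1.31 times on their first probe sets, beside a median of 1.48 over all probe sets. It was over 3 times for HADH, ECHS1, ETFA, ACADM, ACADL, ACADSB and ACAD8 in the mitochondrion and for ACAA1, PHYH, HSD17B4, ACOX2 and ACOX3 in the peroxisome. The second probe set of HADHB spanned 2.11 times and the third 1.25 times. Peroxins reached 2.34 times at most, for PEX7. Intensity differed between these genes too, with PEX14 at 107 to 163 and ACAA1 at 447 to 3480. CPT1A, however, had a narrow span at 1875 to 2317, and ACOX3 a wide one at 58.9 to 215. The part of intensity in the spans was not tested. The second probe set of ACADSB had a span of 9.55 times, from CPB 2 to CPB 3, so its lowest and highest animals were of the same group.

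**Figure D4:**
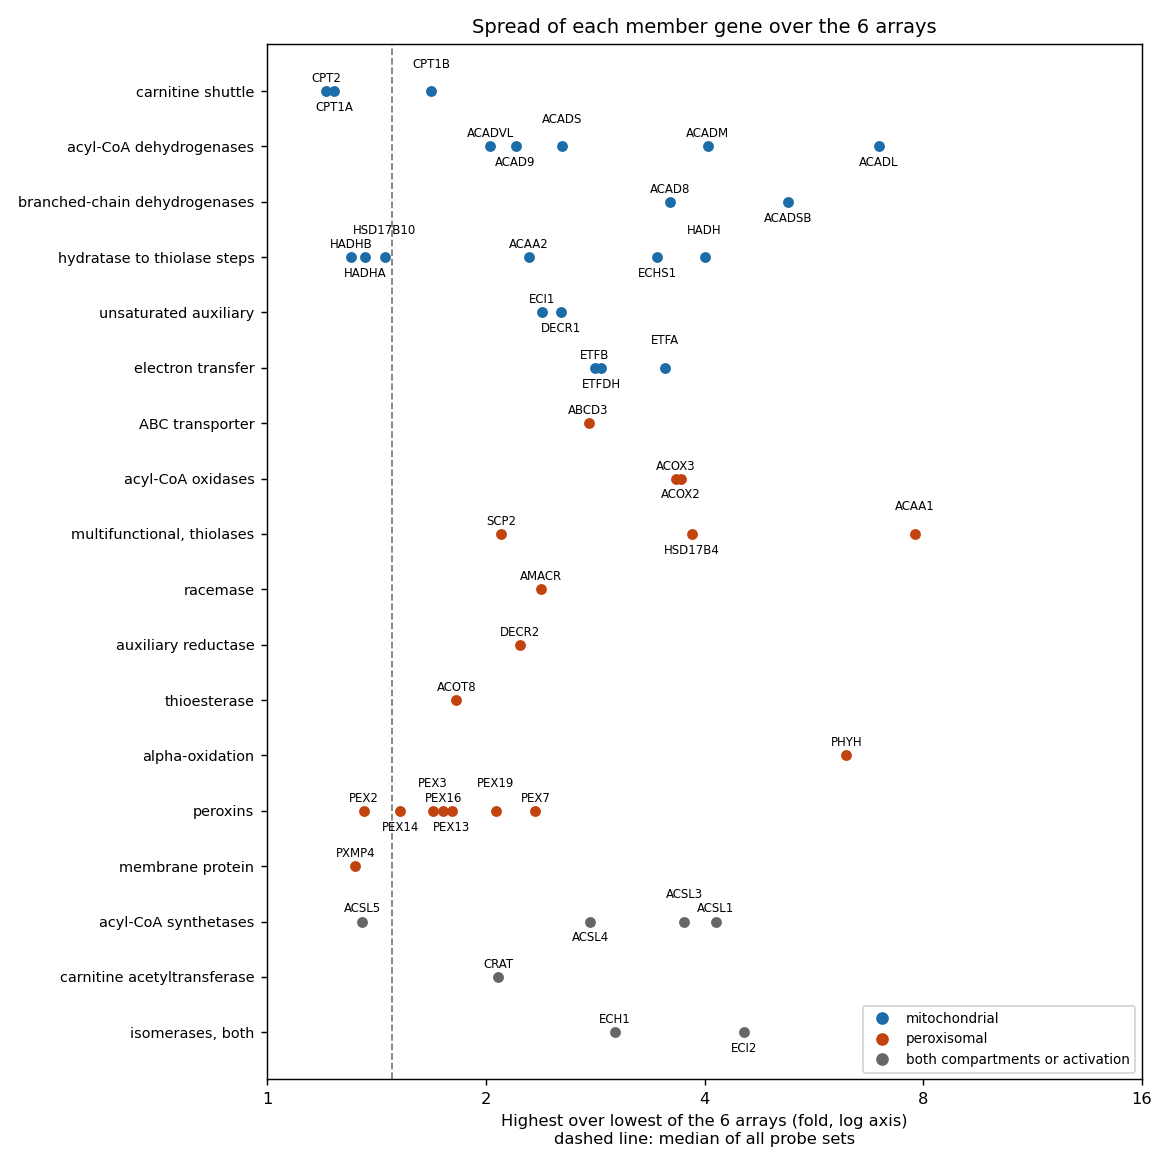
Intensity of the highest of the 6 arrays divided by that of the lowest (x axis, log scale) for each gene on its first probe set, by role, with the median of all probe sets, 1.48, as a dashed line. CPT1A, CPT2, HADHA, HADHB, HSD17B10, PEX2, PXMP4 and ACSL5 lie left of that line, and ACAA1, ACADL, PHYH and ACADSB are above 5 times.

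When the centred mean of the proximal tubule markers was added to the fit as a covariate, most differences moved toward 0. Of the 46 genes 33 moved closer to 0, 15 changed sign, and 27 had a higher mean in CPB. The mitochondrial median was then 0.033 and the peroxisomal median 0.007, beside 0.019 over all probe sets. ACOX3, at 1.08 (SE 0.24) with an unadjusted limma p of 0.0037, and ECI2, at 0.82 (SE 0.25) with 0.017, met the study's threshold in that fit, as did 0.479% of all probe sets in either direction. ABCD3 on its second probe set, at -0.40 (SE 0.14) with 0.026, and AMACR, at -0.34 (SE 0.14) with 0.048, also had an unadjusted limma p below 0.05, in the lower direction and short of 1.6-fold, while 2.74% of all probe sets passed that p. HADHA, at 0.26, and PEX14, at 0.29, kept nearly the same difference, and ACADM, ETFA and SCP2 had differences of -0.31, -0.27 and -0.20. None passed the adjusted p. The markers were themselves higher in CPB, so a change in cell makeup and a change within cells cannot be told apart with this covariate.

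**Figure D5:**
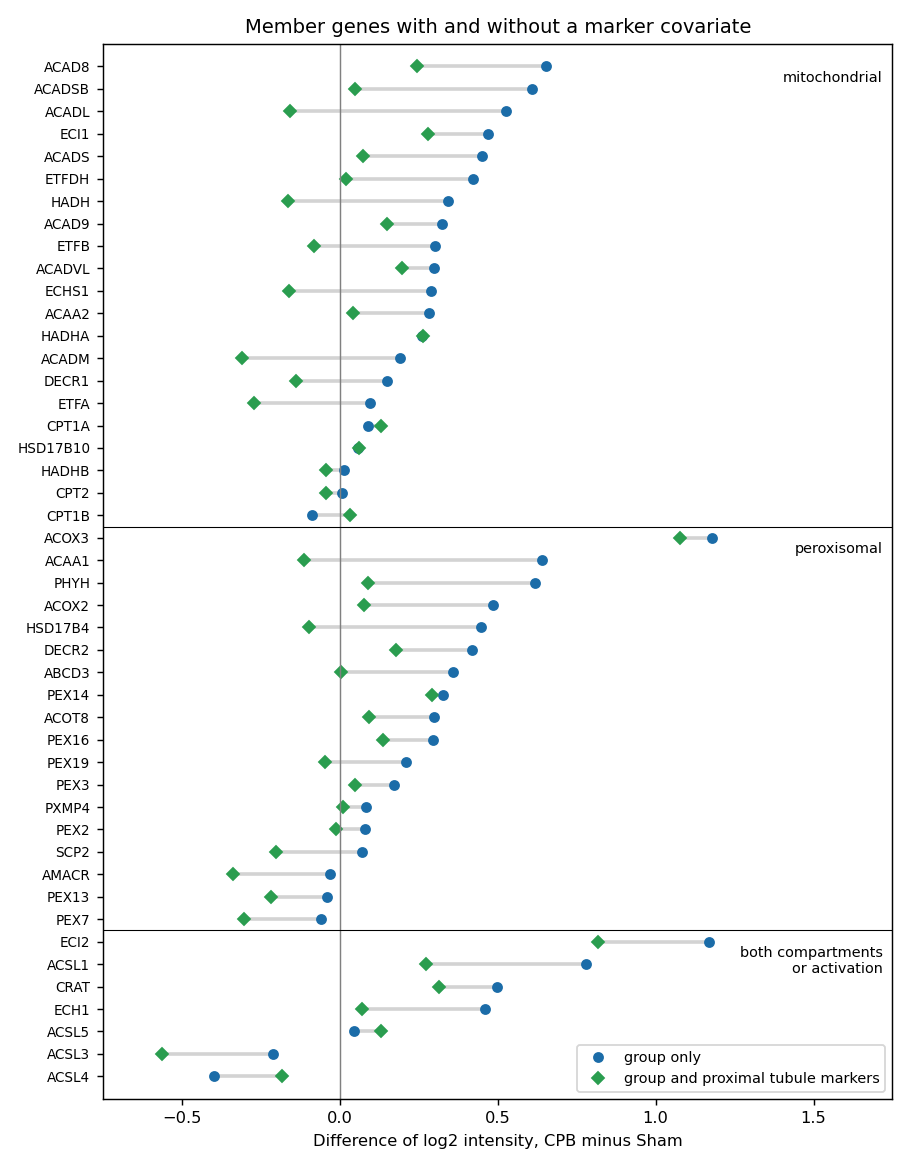
Difference of log2 intensity, CPB minus Sham (x axis), of each gene without a covariate (circles) and with the mean of the proximal tubule markers as a covariate (diamonds), joined by grey lines. Most diamonds lie nearer 0 than their circles, while ACOX3, HADHA and PEX14 move little and ECI2 stays at 0.82.

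A fit without Sham 2 and CPB 2 gave 33 of 61 probe sets at the study's threshold, all higher in CPB and from 28 genes, and 9 past the adjusted p, while 12.8% of all probe sets met the threshold in either direction and 3.00% passed the adjusted p. The medians were then 0.84 and 0.69 for the mitochondrial and peroxisomal genes. These arrays were the highest Sham array and the lowest CPB array for most of the genes, so leaving them out fixes the direction of the shift and the counts are a description of the remaining 4 arrays.

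Other genes of fatty acid and peroxisome metabolism showed the same direction with no call. Of 92 listed 45 were measured, 37 were higher in CPB, the median difference was 0.16 and none had an unadjusted p below 0.05. The smallest p among them was that of ACSL6, a further acyl-CoA synthetase, at 20.2, 21.5 and 18.2 in the Sham arrays and 23.3, 22.4 and 24.1 in the CPB arrays, a difference of 0.22 (SE 0.11) with the groups apart, and its second probe set gave -0.0018. ABCD4, on that list as a transporter of the same family as ABCD3, differed by 0.37 (SE 0.22), with 0.071 and 0.26 on its other probe sets. Membership of that family does not by itself place it in the peroxisome. Of 23 regulators of fatty acid oxidation 17 were measured and 9 were higher in CPB, with a median of 0.044. ANGPTL4, a secreted inhibitor of lipoprotein lipase and a known target of the PPAR receptors, read 381, 495 and 351 in Sham 1, 2 and 3 and 593, 515 and 689 in CPB 1, 2 and 3. All CPB arrays were above all Sham arrays on this probe set, and the difference was 0.56 (SE 0.18) with an unadjusted limma p of 0.023 and an adjusted p of 0.995, below 1.6-fold. Its second probe set differed by 0.75 (SE 0.34) with the groups overlapping. PPARA, the receptor that drives genes of fatty acid oxidation, differed by 0.48 (SE 0.29), with -0.019 on its second probe set, and PRKAA2, a catalytic subunit of AMP-activated kinase, by 0.27 (SE 0.12), neither past the test.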

How the data were processed

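Total RNA from renal medulla of 3 Sham and 3 CPB pigs was hybridised to separate Affymetrix porcine arrays. Per the paper's methods GCOS gave a quality report and the authors normalised the arrays together by RMA in ArrayStar. That method corrects background, equalises the distributions and summarises probes. The deposited intensities were taken to be on a linear scale from their size, since the labels do not state it. Background and signal above it per probe are not known from these values, and no genome build is named, so no positions are given. The array annotation names 10099 probe sets with 1 gene and 198 with several, and 13826 are unnamed here. For all 61 probe sets used, the gene identifier in the annotation carried the same symbol in RefSeq. Probe sequences were not compared with transcripts.

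The log2 of the deposited intensity was compared in limma 3.58.1 (lmFit and eBayes, R 4.3.3) over 23999 probe sets, with 124 control probe sets left out and Benjamini-Hochberg adjustment. The fit was run on simulated data with independent noise on each array and known shifts put in. Such data lack the order of animals shared across genes here, so the run does not show how the fit behaves under it. The p-values set each difference against the spread between 3 animals per group, which limma moderates by the spread over all probe sets. The methods' t-test, array weights, a trend with a robust prior, centring on the median, a repeated quantile normalization, leaving out the lowest 25% of probe sets by intensity, keeping controls, the replicate number, left-out arrays, a proximal tubule marker covariate, the mean of a gene's probe sets, other compartments and fold minimums of 1.5 and 2 were tried as alternatives.

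The genes, lists and alternatives were chosen with earlier results of these data known. Values per array were given for genes with an unadjusted p below 0.05, for genes whose groups were at least 1.5-fold apart without overlap, and for the brightest and most different gene of each role. Per-array values of HADHA, HADHB, HSD17B4, ACSL4, CPT1B and the second probe sets of ACADSB, ACOX3 and ECI2 were added after they were seen. Outside the list at most 5 genes were named, by the smallest p.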

Additional observations from a re-analysis of the deposited data

How the results depend on the processing

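The count of 1 probe set at the study's threshold was 20 with array weights, where 8.82% of all probe sets met it in either direction. It was 2 with the proximal tubule covariate, 33 without both replicates numbered 2, and from 1 to 6 with single arrays left out. The count past an adjusted p of 0.05 was 9 without both replicates numbered 2, and the mitochondrial median was then 0.84. With array weights, whose estimation stopped before convergence, the mitochondrial and peroxisomal medians were 0.77 and 0.55. The lowest weights were those of Sham 2 and CPB 2, at 0.344 and 0.374, and the highest, 6.16, was that of CPB 1. That fit thus played down the arrays whose removal fixes the direction of the shift, and leaned on CPB 1. Its counts and medians are a description, not a separate check. The medians stayed above 0 in the alternatives run. With the covariate, however, both came close to the 0.019 over all probe sets, the peroxisomal one lying below it. The genes higher in CPB then fell from 40 to 27 of 46. The other counts changed by less than 1.5 times. ACOX3 on its first probe set, or as the mean of both, met the study's threshold in the alternatives run for it. A replicate block kept its difference at 1.18 and the count at 1. Same-numbered Sham and CPB arrays did not deviate together, with correlations of -0.39, -0.68 and -0.016 for numbers 1, 2 and 3, so the numbers were not taken as pairs.

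The sign of several differences turned. With the covariate the differences were 0.033 for CPT1B, -0.31 for ACADM, -0.16 for ACADL, -0.16 for ECHS1, -0.16 for HADH, -0.044 for HADHB, -0.27 for ETFA, -0.099 for HSD17B4, -0.11 for ACAA1, -0.20 for SCP2 and -0.036 for the second probe set of ECI2. AMACR was 0.026 in the t-test on linear values, 0.45 with array weights and 0.55 without both replicates numbered 2. HADHB was -0.021 with array weights and -0.028 after a second quantile normalization. With single arrays left out the differences ran from -0.11 to 1.40 for ACAA1, -0.17 to 0.84 for ACADM, -0.28 to 0.37 for AMACR, -0.31 to 0.065 for CPT1B, -0.024 to 0.87 for ECHS1, -0.078 to 0.33 for the second probe set of ECI2, -0.26 to 0.65 for ETFA, -0.034 to 0.97 for HADH, -0.092 to 0.10 for HADHB, -0.032 to 1.26 for PHYH, -0.0043 to 0.20 for PXMP4 and -0.11 to 0.42 for SCP2. The causes were not tested. The 3 animals per group limit what can be called.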
